A study of Mus musculus with 14 samples.

Results

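The peptide genes Trh, Adcyap1, Calca, Ghrh, Tac1 and Tac2 were followed in dissociated cells of the mouse lateral hypothalamic area. Their rows were taken by symbol from the count tables of 14 mice, in which 21568 gene symbols are listed, so the set holds 6 genes. Barcodes, each taken as 1 cell, were used when they held at least 500 unique molecular identifiers (UMIs, 1 per captured transcript) and at least 300 genes and when at most 20% of their UMIs came from mitochondrially encoded genes, which kept 15378 of 28410 barcodes (54.1%). The genes were chosen from earlier results of these data, and their detection, their split between neuron classes and their co-detection are counted as values that chose them. The levels and the p-values of the split below therefore describe these genes and are not independent support. Of the 1566 barcodes just under the UMI limit, with 400 to 499 UMIs, 6.32% held a UMI of 1 of the 6 genes, and of the 1447 with 500 to 599 UMIs 7.12% did.

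All mice were male, of strain C57BL/6J and wildtype, were housed on a reversed light cycle and ate and drank freely. Control mice (n = 7) received a chow matched in taste to the high fat diet given to the others (n = 7), and each mouse gave 1 Drop-seq library, in which cells are captured in droplets with barcoded beads that prime the 3' end of transcripts. Age, the length of feeding and body weight were not used here. Sequencing used a pool of 8 libraries (pool 1, 4 from each diet) and another of 6 (pool 2, 3 from each diet), run on different lanes.

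All 6 genes encode prohormones that are cut by convertases in secretory granules and released as neuropeptides. Trh gives thyrotropin-releasing hormone, Adcyap1 gives PACAP (pituitary adenylate cyclase-activating polypeptide), and Calca gives calcitonin or, by alternative splicing in neurons, calcitonin gene-related peptide (CGRP). Ghrh gives growth hormone-releasing hormone, Tac1 gives substance P and neurokinin A, and Tac2 gives neurokinin B. Neurons of the lateral hypothalamus pair such peptides with a fast transmitter: Slc17a6 encodes the vesicular glutamate transporter VGLUT2, and Slc32a1 encodes the vesicular transporter that loads GABA. A 3' count does not separate the calcitonin and CGRP transcripts of Calca.

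In GENCODE M21 on GRCm38 all 6 genes are protein coding and none overlaps another annotated gene. Trh lies on the reverse strand at chr6:92242061-92244650, Adcyap1 on the forward strand at chr17:93199017-93206537, and Calca on the reverse strand at chr7:114631478-114636357. Ghrh lies on the reverse strand at chr2:157329497-157347506, Tac1 on the forward strand at chr6:7554879-7565834, and Tac2 on the forward strand at chr10:127724478-127731768. Peptide genes are a textbook class of targets of cyclic AMP signalling, which acts through the response element TGACGTCA and its half-site TGACG. The 250 bases before the start site of Trh, Adcyap1 and Calca, each of which was seen more often in neurons with another of the 3 than in neurons without it, and of Tac2, which was mostly detected in neurons with Slc32a1, are shown from RefSeq on GRCm38.p6 in the direction of transcription. Capitals mark TGACG on either strand (CGTCA is the same letters on the other strand) and the near variant TGACCTCA.
Trh (chr6:92244651-92244900, reverse strand): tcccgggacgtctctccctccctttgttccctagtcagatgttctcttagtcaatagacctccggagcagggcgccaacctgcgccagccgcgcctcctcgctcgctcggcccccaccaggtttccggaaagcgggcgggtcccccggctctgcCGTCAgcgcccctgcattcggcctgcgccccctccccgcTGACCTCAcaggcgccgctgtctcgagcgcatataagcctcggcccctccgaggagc
Adcyap1 (chr17:93198767-93199016, forward strand): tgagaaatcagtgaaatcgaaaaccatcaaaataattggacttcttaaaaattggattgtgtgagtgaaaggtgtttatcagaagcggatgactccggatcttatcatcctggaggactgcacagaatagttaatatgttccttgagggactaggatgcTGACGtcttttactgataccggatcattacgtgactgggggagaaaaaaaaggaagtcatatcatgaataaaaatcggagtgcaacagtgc
Calca (chr7:114636358-114636607, reverse strand): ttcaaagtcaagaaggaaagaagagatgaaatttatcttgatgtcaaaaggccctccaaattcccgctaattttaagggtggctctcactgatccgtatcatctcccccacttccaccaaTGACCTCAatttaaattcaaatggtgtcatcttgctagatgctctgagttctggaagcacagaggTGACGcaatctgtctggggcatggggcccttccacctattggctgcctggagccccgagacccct
Tac2 (chr10:127724228-127724477, forward strand): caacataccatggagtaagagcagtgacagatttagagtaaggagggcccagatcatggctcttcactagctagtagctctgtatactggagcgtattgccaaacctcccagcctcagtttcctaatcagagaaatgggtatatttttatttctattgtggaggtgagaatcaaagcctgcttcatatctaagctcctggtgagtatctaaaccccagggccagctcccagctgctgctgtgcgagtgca
The half-site TGACG, searched on both strands, occurred in 5 of the 6 promoters (not in Tac2) and in 17.8% of the 32851 RefSeq mouse promoters of the same length. TGACCTCA, also searched on both strands and not overlapping the half-site, occurred in 2 of the 6, beginning 57 bases before the start of Trh and 130 bases before that of Calca, and in 1.94% of all promoters. The full element TGACGTCA, which contains the half-site, was found in none of the 6 and in 1.55% of all promoters. A match says only that the letters are there.

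Neurons were the barcodes in which 12 neuronal marker genes made up at least 0.7% of UMIs, a value set at the low point of a distribution with a peak on either side. This gave 6351 neurons with a median of 3431 UMIs, and 130 kept barcodes lay between 0.5% and the threshold. A neuron with at least 1 UMI of Slc17a6 and none of Slc32a1 is called a Slc17a6 neuron (2039 neurons, median 4069 UMIs), and one with the reverse a Slc32a1 neuron (2778 neurons, median 4191.5 UMIs). Both transporters were seen in 174 neurons and neither in 1360, whose median depth was 1244 UMIs. Levels are given as CPM, the UMIs of a gene per 1000000 UMIs of the class in a mouse. In the pooled counts Gad2, which encodes a GABA-synthesizing enzyme, stood at 157 CPM in Slc17a6 neurons and 2738 CPM in Slc32a1 neurons.

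Library totals ran from 147470 UMIs (high fat diet replicate 7) to 5611524 (high fat diet replicate 2). High fat diet replicate 7 gave 11 neurons, too few of either class to use, so both classes hold 7 control and 6 high fat diet mice, and its table does not list Calca and Ghrh. Control replicate 7 (16 Slc17a6 neurons) and control replicate 6 (30) were also small. The libraries of 3 pool 1 mice (high fat diet replicate 1 and control replicates 1 and 2) stood apart from the rest: over the 11 mice with enough neurons, summed neuron counts correlated at 0.964 to 0.979 among them, at 0.916 to 0.988 among the others and at 0.855 to 0.944 between both sets, and oligodendrocytes showed the same division. Results are given with and without them where that changes a call. Only 3 kept barcodes recurred between libraries, each in a different pair of the 91 pairs.

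Most transcripts of the 6 genes were in neurons. Neurons held 27251271 of the 38065640 UMIs of all kept barcodes, and between 97.4% (Tac1) and 99.5% (Adcyap1) of each gene's UMIs. Of the barcodes with a UMI, neurons were 80.6% for Tac1, 89.0% for Tac2, 91.2% for Trh, 96.6% for Calca, 98.6% for Ghrh and 98.8% for Adcyap1. A UMI of Trh was seen in 289 neurons, of Adcyap1 in 497, of Calca in 143, of Ghrh in 138, of Tac1 in 920 and of Tac2 in 828. Because droplets also capture free RNA, shares were set against oligodendrocytes after thinning barcodes to 1000 UMIs, which left 1845 Slc17a6 neurons, 2611 Slc32a1 neurons and 3588 oligodendrocytes and dropped 194, 167 and 2678 shallower ones. Trh was then seen in 6.96% of Slc17a6 neurons, 0.379% of Slc32a1 neurons and 0.235% of oligodendrocytes, against 10.0%, 1.08% and 0.287% at their own depth. The thinned share of Trh in Slc32a1 neurons was thus nearer to that of oligodendrocytes than to that of Slc17a6 neurons. The counts per barcode differed: no oligodendrocyte held more than 1 Trh UMI. Of the 30 positive Slc32a1 neurons 8 held 2 or more, with at most 22 in 1 barcode. Adcyap1 was seen in 7.23% of Slc17a6 neurons, 0.353% of Slc32a1 neurons and 0.0244% of oligodendrocytes after thinning. Tac2 was seen in 16.1% of Slc32a1 neurons, 1.01% of Slc17a6 neurons and 0.690% of oligodendrocytes.

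Tac1 was also detected in a group of glial barcodes. Barcodes resembling oligodendrocyte precursor cells (OPC-like, at least 0.5% of UMIs from 6 precursor markers) held a Tac1 UMI in 69 of 471 cases, a share of 14.6%, and oligodendrocytes in 106 of 6266 (1.69%), at median depths of 1055 and 1097 UMIs. In the 11 mice with at least 10 OPC-like barcodes the share ran from 10.3% to 22.2% with a median of 15.6%, and in their oligodendrocytes from 0.549% to 3.75%. The precursor share was the higher in 11 of 11 mice, by 13.4 ± 3.44 percentage points (SD, n = 11). This comparison was chosen after the values were seen and is given with no test. Barcodes that fitted no named class held Tac1 in 23 of 246 cases (9.35%). The level in OPC-like barcodes was low, with 80 Tac1 UMIs in all and at most 3 in 1 barcode. Only 3 of the 69 barcodes held a UMI of either transporter. Neuronal markers made up 0.217% of UMIs in the median Tac1-positive and 0.198% in the median Tac1-negative OPC-like barcode. In oligodendrocytes the same shares were lower, at 0.029% and 0.0%. Whether neuronal RNA added to the Tac1 UMIs of OPC-like barcodes was not tested. OPC-like barcodes held Tac2 in 0.849% and Calca in 0.212% of cases. Adcyap1 and Ghrh were seen in 0 of 471, which allows a share of up to 0.637% with a UMI.

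A few neurons carried most of the transcripts of some genes and not of others. Neurons with at least 10 Trh UMIs numbered 88 and held 76.2% of all Trh UMIs in neurons, and 72 of them were Slc17a6 neurons. For Tac1 312 such neurons held 78.2% and for Tac2 295 held 82.8%, of which 254 were Slc32a1 neurons. Calca was rarer, with 14 neurons of at least 10 UMIs holding 46.9%. Adcyap1 was spread thinly: only 8 of its 497 positive neurons reached 10 UMIs, and all 8 were Slc17a6 neurons. Ghrh reached 10 UMIs in 1 neuron, and 41 of its 138 positive neurons held 2 or more.

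Trh, Adcyap1, Ghrh and Calca were higher in Slc17a6 neurons, Tac2 was higher in Slc32a1 neurons, and Tac1 was present in both. Counts were summed over the neurons of a class in each mouse and tested with edgeR's quasi-likelihood test with the mouse as a block, over 13 mice and 10330 genes. With Benjamini-Hochberg adjustment over all these genes, 5 of the 6 passed at 0.05, 4 higher and 1 lower in Slc17a6 neurons, where 10.9% of all genes tested passed (5.61% higher and 5.25% lower) and 20.3% had an unadjusted p under 0.05. All 6 passed the filter on low counts in this comparison, but Trh, Adcyap1 and Ghrh fell below it when Slc32a1 neurons were fitted alone. The split was among the values that chose the 6 genes, so these counts describe them and are no independent support. The median log2 fold change of the 6 was 2.01 and that of all genes -0.0046. The transcripts of the transporters define the classes and are no result.

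**Figure D1:**
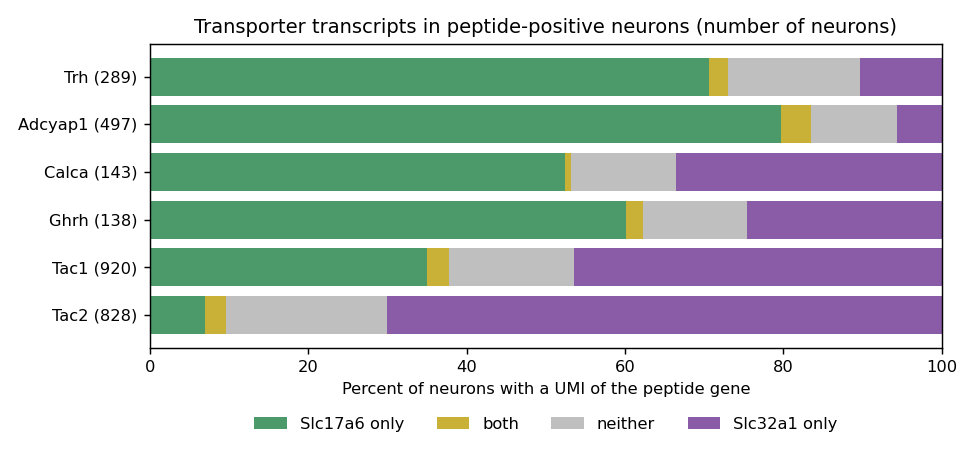
Horizontal bars give, for each peptide gene, the percent of its positive neurons (at least 1 UMI, number in brackets) that held UMIs of Slc17a6 only, of both transporters, of neither or of Slc32a1 only. Slc17a6-only neurons make up 70.6% for Trh and 79.7% for Adcyap1, and Slc32a1-only neurons 70.0% for Tac2.

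Trh stood at 173 ± 121 CPM in Slc17a6 neurons and 6.36 ± 10.1 in Slc32a1 neurons (SD, n = 13). The log2 fold change was 5.20 (SE 0.38, adjusted p = 4.3e-07 by edgeR), a 36.8-fold difference, and Trh was higher in 13 of 13 mice. Of its 289 positive neurons 204 were Slc17a6 neurons, 30 were Slc32a1 neurons, 7 held both transporters and 48 neither. Of the 88 neurons with at least 10 UMIs, 1 was a Slc32a1 neuron.

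Adcyap1 stood at 88.3 ± 40.8 CPM in Slc17a6 neurons and 3.31 ± 3.02 in Slc32a1 neurons (SD, n = 13), a log2 fold change of 4.87 (SE 0.21, adjusted p = 6.0e-16 by edgeR) in the same direction in 13 of 13 mice. At their own depth 19.4% of Slc17a6 neurons and 1.01% of Slc32a1 neurons held an Adcyap1 UMI. Of its 497 positive neurons 396 were Slc17a6 neurons.

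Ghrh was sparse, at 12.4 ± 7.83 CPM in Slc17a6 neurons and 2.94 ± 2.52 in Slc32a1 neurons (SD, n = 13). Its log2 fold change was 2.196 (SE 0.27, adjusted p = 5.4e-10 by edgeR), and it was higher in 11 of 13 mice. In Slc32a1 neurons 3 of the 13 mice held no Ghrh UMI, and the largest count in a mouse was 10.

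Calca stood at 31.7 ± 34.7 CPM in Slc17a6 neurons and 7.24 ± 5.68 in Slc32a1 neurons (SD, n = 13), with a log2 fold change of 1.82 (SE 0.44, adjusted p = 0.017 by edgeR), and was higher in 11 of 13 mice. The call depended on few mice. Without high fat diet replicate 2, which held 169 of the 341 Calca UMIs of Slc17a6 neurons, the log2 fold change was 1.35 and the adjusted p was 0.118, and without the 3 mice that stood apart they were 1.76 and 0.057. Over all alternatives the adjusted p of Calca ran from 2.8e-05 to 0.118. Calca was also the member most evenly divided by the number of positive neurons after Tac1, with 75 Slc17a6 and 48 Slc32a1 neurons.

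Tac2 had the opposite pattern. It stood at 15.9 ± 12.5 CPM in Slc17a6 neurons and 727 ± 289 in Slc32a1 neurons (SD, n = 13), a log2 fold change of -5.52 (SE 0.22, adjusted p = 5.4e-10 by edgeR), which is 45.9-fold lower, and it was lower in Slc17a6 neurons in 13 of 13 mice. Between 15.7% and 27.8% of the Slc32a1 neurons of a mouse held a Tac2 UMI. Of the 58 Slc17a6 neurons with a Tac2 UMI 20 held 2 or more and 4 held at least 10.

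Tac1 did not pass the test between the classes. It stood at 348 ± 193 CPM in Slc17a6 neurons and 294 ± 117 in Slc32a1 neurons (SD, n = 13), a log2 fold change of 0.17 with a 95% interval from -0.33 to 0.66 (adjusted p = 0.805 by edgeR), and was higher in Slc17a6 neurons in 9 of 13 mice. Positive neurons numbered 322 Slc17a6 and 427 Slc32a1 neurons, and neurons with at least 10 UMIs 141 and 146. The tachykinin genes therefore differed in how they divided, with substance P transcripts in both classes and neurokinin B transcripts mostly in 1.

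Co-detection was counted by pairs of genes. Within Slc17a6 neurons Trh was paired with Adcyap1, Calca and Tac1, and Tac1 also with Adcyap1 and Calca. Ghrh was seen with Trh and, in this class, seldom with Tac1. Of 204 Trh-positive Slc17a6 neurons 105 (51.5%) also held Adcyap1, in 11 mice, against 15.9% of the Trh-negative ones. Since deeper neurons show more of every gene, the 1719 neurons with at least 1500 UMIs were thinned to that number. Adcyap1 was then seen in 31.3% of Trh-positive and 8.18% of Trh-negative neurons, and in 32.4% and 8.12% without the 3 mice that stood apart. In each of the 10 mice with at least 5 Trh-positive neurons the own-depth share was higher in the positive ones. In 62 neurons both genes had at least 2 UMIs. Seen from Adcyap1, 26.5% of its 396 positive Slc17a6 neurons held Trh.

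**Figure D2:**
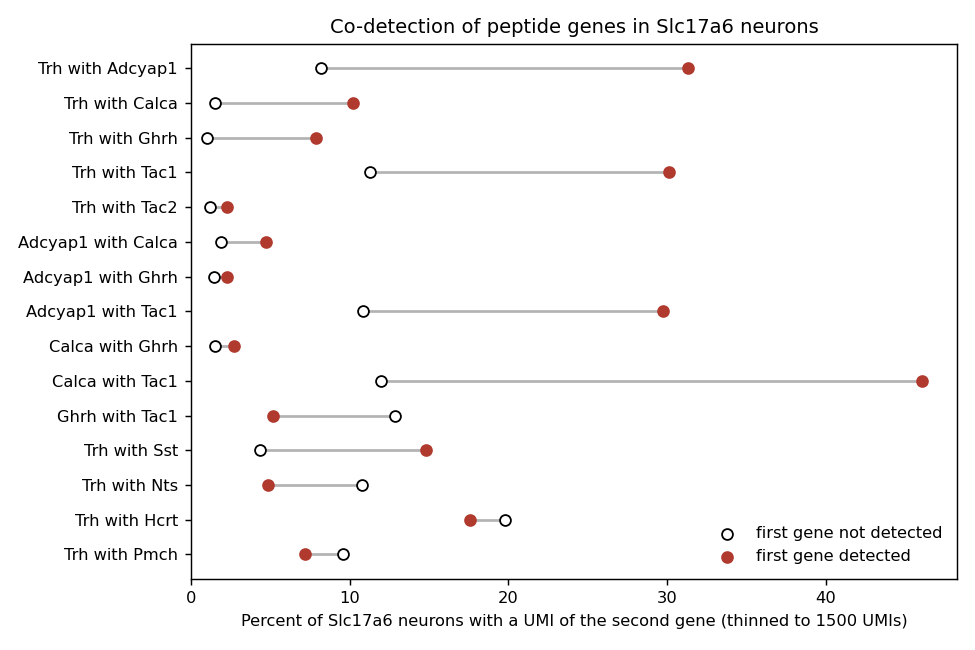
For pairs of peptide genes, the horizontal axis gives the percent of Slc17a6 neurons (1719 neurons, thinned to 1500 UMIs) with a UMI of the second gene, in neurons where the first gene was detected (filled points) or not (open points). Adcyap1 is at 31.3% with Trh and 8.18% without it, Tac1 is at 46.0% with Calca and 12.0% without it, and Tac1 is lower, at 5.16%, with Ghrh.

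Tac1 joined each of these genes except Ghrh. At 1500 UMIs it was seen in 30.1% of Trh-positive and 11.3% of Trh-negative Slc17a6 neurons, in 29.8% of Adcyap1-positive and 10.9% of Adcyap1-negative ones, and in 46.0% of Calca-positive and 12.0% of Calca-negative ones. The own-depth share was higher in the positive neurons in 10 of 10, 12 of 12 and 7 of 7 mice with at least 5 positive neurons. Ghrh-positive neurons held Tac1 in 5.16% of cases and Ghrh-negative ones in 12.9%, and in 0 of 8 mice was the own-depth share higher in the positive neurons. Only 6 Slc17a6 neurons held both Ghrh and Tac1. Over all neurons, where shares are given at own depth and not thinned, Tac1 was seen in 13.8% of Ghrh-positive and 14.5% of Ghrh-negative neurons.

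Ghrh was paired with Trh. Of 83 Ghrh-positive Slc17a6 neurons 32 (38.6%) held Trh, against 8.79% of the rest, in 11 mice, and after thinning the shares were 39.4% and 7.29%. The own-depth share was higher in Ghrh-positive neurons in 8 of 8 mice. Adcyap1, in contrast, was seen in 14.5% of Ghrh-positive and 9.91% of Ghrh-negative neurons after thinning, a smaller gap than for Trh. Calca was in 4 of the 83 Ghrh-positive Slc17a6 neurons (4.82%) and in 3.63% of the Ghrh-negative ones. Calca-positive neurons held Trh in 36.0% of cases (27 of 75) and Calca-negative ones in 9.01%.

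Other peptides of the area served as a comparison. Sst, which encodes somatostatin, was seen in 14.8% of Trh-positive and 4.35% of Trh-negative Slc17a6 neurons at 1500 UMIs, and its own-depth share was higher in 10 of 10 mice. Nts, which encodes neurotensin, was seen in 4.88% and 10.8%, so co-detection was not raised for every peptide. The abundant transcripts Hcrt and Pmch encode the hypocretin and melanin-concentrating hormone precursors. Hcrt was seen in 17.6% of Trh-positive and 19.8% of Trh-negative neurons, and Pmch in 7.19% and 9.57%. Hcrt UMIs were also seen in 23.2% of oligodendrocytes at their own depth, not thinned, which is the background for its shares. With that background a flat Hcrt share says little about co-detection, and the background of Pmch is not given here.

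In Slc32a1 neurons Tac2 was detected about as often with Tac1 as without it. Tac2 was seen in 18.6% of Tac1-positive and 17.6% of Tac1-negative neurons at 1500 UMIs (2464 neurons), and 96 neurons held both. The own-depth share was the higher in Tac1-positive neurons in 5 of 11 mice. Tac1 was seen with Cartpt, the gene of the CART peptide: 26.2% of Tac1-positive and 7.83% of Tac1-negative neurons held it, and the own-depth share was higher in 11 of 11 mice. Galanin transcripts (Gal) were seen in 28.3% and 16.7% and Sst in 20.9% and 11.1% of the same neurons. Calca-positive Slc32a1 neurons, 48 in number, held Cck, which encodes cholecystokinin, in 22.2% of cases and Calca-negative ones in 2.49% at 1500 UMIs, and the own-depth share was higher in 6 of 6 mice. Over all neurons 4141 of 6351 (65.2%) held none of the 6 genes, 1729 held 1, 374 held 2, 92 held 3, 13 held 4 and 2 held 5.

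Over all neurons, the genes most like each member were taken by fold: the 5 genes with the highest mean log2 ratio between positive and negative neurons over mice with at least 5 positive neurons, with 20 CPM added to both levels. Only genes seen in at least 20% of the positive neurons were ranked, which leaves out rarer ones such as Calcb, seen in 5.59% of Calca-positive and 0.338% of Calca-negative neurons. For Trh they were Adcyap1 (5.27-fold over 11 mice), Otp, Onecut2, Cbln1 and Sim1, among which Otp and Sim1 encode transcription factors of hypothalamic neuroendocrine lineages. Otp was seen in 51.2% of the 289 Trh-positive neurons and 6.07% of the others. For Adcyap1 they were Trh, Bdnf, Otp, Tac1 and Cbln1, for Calca they were Trh, Asb4, Cbln1, Tac1 and Calb2, and for Ghrh they were Trh (9.81-fold over 9 mice), Sncg, Onecut2, Otp and Bdnf. For Tac1 they were Cartpt (1.80-fold over 13 mice), Gal, Cbln2, Ddc and Nts. For Tac2 they were Lamp5 (3.36-fold over 13 mice, higher in 13 of 13), Gal, Cadps2, Prlr and Lypd1. Cbln1, which encodes a synapse-organizing protein, appeared in 3 of the lists and Trh in 3.

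Whether the diet moved these genes was the study's comparison. No difference between the diets was detected for any of the 6 genes in neurons as a whole, in Slc17a6 neurons or in Slc32a1 neurons. With sequencing pool as a covariate, edgeR called 0 of 6 members in neurons, where 0.0% of the 10864 genes tested passed and 134 (1.23%) had an unadjusted p under 0.05. In Slc17a6 neurons it called 0 of 6, where 0.0% of 8777 passed and 126 (1.44%) had an unadjusted p under 0.05. In Slc32a1 neurons Trh, Adcyap1 and Ghrh were below the filter on low counts and 0 of the 3 others were called, where 0.0106% of 9411 genes passed and 172 (1.83%) had an unadjusted p under 0.05. The gene that passed was Rpph1, the RNA subunit of ribonuclease P (log2 fold change 1.13, SE 0.18, adjusted p = 0.0145), named after its value was seen, and it did not pass without the 3 mice that stood apart or within either pool. No member had an unadjusted p under 0.05 in any of these fits, and DESeq2 called none. The median log2 fold change of the members was 0.25 in neurons, where it was -0.0033 for all genes, and -0.0049 in Slc17a6 neurons, where it was 0.011 for all genes. For the 3 members tested in Slc32a1 neurons it was 0.495, all 3 positive, where it was 0.0058 for all genes. In neurons as a whole the members' log2 fold changes ran from -0.19 (SE 0.27) for Adcyap1 to 0.61 (SE 0.50) for Calca. In sums of this kind fewer cells of a type and less RNA per cell cannot be told apart. Shares of neurons with a UMI, at their own depth, were not tested between the diets. For Tac2 the share was 11.3 ± 1.63% in control and 14.4 ± 2.51% on high fat diet (SD, n = 7 each), with overlapping values. Its positive neurons held 16.1 ± 11.5 and 12.9 ± 3.23 UMIs. The mean share was also higher on high fat diet for Trh and Tac1, and lower for Adcyap1, Calca and Ghrh. These means include high fat diet replicate 7, which had only 11 neurons. That mouse gave the highest Tac2 share of any mouse, 18.2%, and held no UMI of Trh, Calca or Ghrh in neurons.

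**Figure D3:**
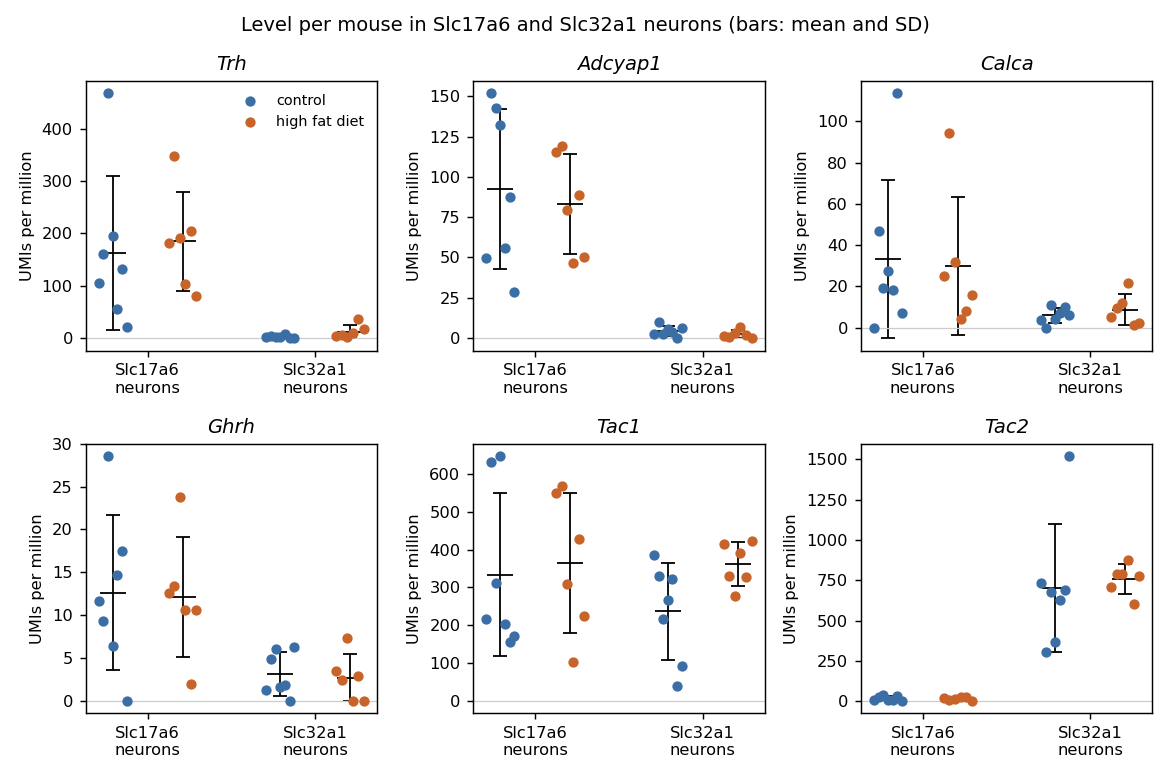
Each point is 1 mouse, and the vertical axes give CPM in the summed Slc17a6 or Slc32a1 neurons of that mouse, for 7 control and 6 high fat diet mice, with bars for the mean and SD. The diets overlap in every panel, control replicate 3 lies highest for Trh at 469 and control replicate 7 highest for Tac2 at 1521.

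Trh in Slc17a6 neurons stood at 105, 161, 469, 195, 56.0, 131 and 21.5 CPM in control replicates 1 to 7. In high fat diet replicates 1 to 6 it stood at 181, 349, 191, 103, 205 and 79.4. The high fat diet mice lay inside the control range, and the 2 highest mice were 1 of each diet. Means were 163 ± 147 CPM (SD, n = 7 controls) and 185 ± 95.2 CPM (SD, n = 6 on high fat diet), a log2 fold change of 0.15 (SE 0.57, 95% interval -0.96 to 1.26, edgeR adjusted p = 1.0). Within pool 1 the log2 fold change was -0.33 and within pool 2 it was 0.84, so the pools differed in sign.

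Adcyap1 in Slc17a6 neurons stood at 49.4, 152, 143, 132, 56.0, 87.3 and 28.7 CPM in control replicates 1 to 7 and at 116, 119, 79.3, 46.5, 88.6 and 50.3 in high fat diet replicates 1 to 6. The control mice spanned the whole range of the high fat diet mice. Means were 92.6 ± 49.9 (SD, n = 7) and 83.2 ± 31.0 (SD, n = 6), a log2 fold change of -0.19 (SE 0.34, 95% interval -0.85 to 0.48). Within pools it was -0.28 and -0.012. Of the 6 genes this was the most narrowly bounded in Slc17a6 neurons.

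Calca in Slc17a6 neurons ran from 0 to 114 CPM in control mice, with a median of 19.4, and from 4.23 to 94.4 in high fat diet mice, with a median of 20.5. Control replicate 1 held no Calca UMI, which allows up to 3.90 CPM. The log2 fold change was 0.41 (SE 0.78, 95% interval -1.11 to 1.94), and without high fat diet replicate 2 it was -0.37. In control replicate 6 all 13 UMIs came from 1 neuron. Calca was thus the least certain of the 6 in this class.

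Ghrh in Slc17a6 neurons ran from 0 to 28.6 CPM in control mice and from 2.01 to 23.8 in high fat diet mice, with a log2 fold change of -0.065 (SE 0.38, 95% interval -0.81 to 0.68). Control replicate 7 held none, which allows up to 21.5. No mouse held more than 25 Ghrh UMIs in this class.

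Tac1 in Slc17a6 neurons stood at 216, 631, 312, 647, 203, 157 and 172 CPM in control replicates 1 to 7 and at 549, 569, 310, 105, 427 and 225 in high fat diet replicates 1 to 6. The 2 highest control mice lay above every high fat diet mouse, and the lowest high fat diet mouse lay below every control mouse. The log2 fold change was 0.055 (SE 0.47, 95% interval -0.87 to 0.98).

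In Slc32a1 neurons Tac1 stood at 386, 331, 218, 267, 324, 39.8 and 93.9 CPM in control replicates 1 to 7 and at 415, 331, 279, 392, 327 and 423 in high fat diet replicates 1 to 6. The low values of control replicates 6 and 7 came from 25 and 17 neurons. Means were 237 ± 128 (SD, n = 7) and 361 ± 57.7 (SD, n = 6), and the log2 fold change of 0.50 (SE 0.30, 95% interval -0.09 to 1.08, unadjusted p = 0.121) did not pass. It was 0.47 within each pool and 0.66 without the 3 mice that stood apart.

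Tac2 in Slc32a1 neurons stood at 730, 304, 676, 369, 629, 687 and 1521 CPM in control replicates 1 to 7 and at 706.4, 787, 790, 879, 600 and 779 in high fat diet replicates 1 to 6. The high fat diet mice lay inside the control range. Of the 243 Tac2 UMIs in control replicate 7, 66.3% came from 1 of 4 positive neurons. The log2 fold change was 0.22 (SE 0.29, 95% interval -0.35 to 0.78), and it was 0.061 within pool 1 and 0.42 within pool 2. For Calca in these neurons the log2 fold change was 0.62 (SE 0.44, 95% interval -0.24 to 1.47), on 114 UMIs in 13 mice.

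**Figure D4:**
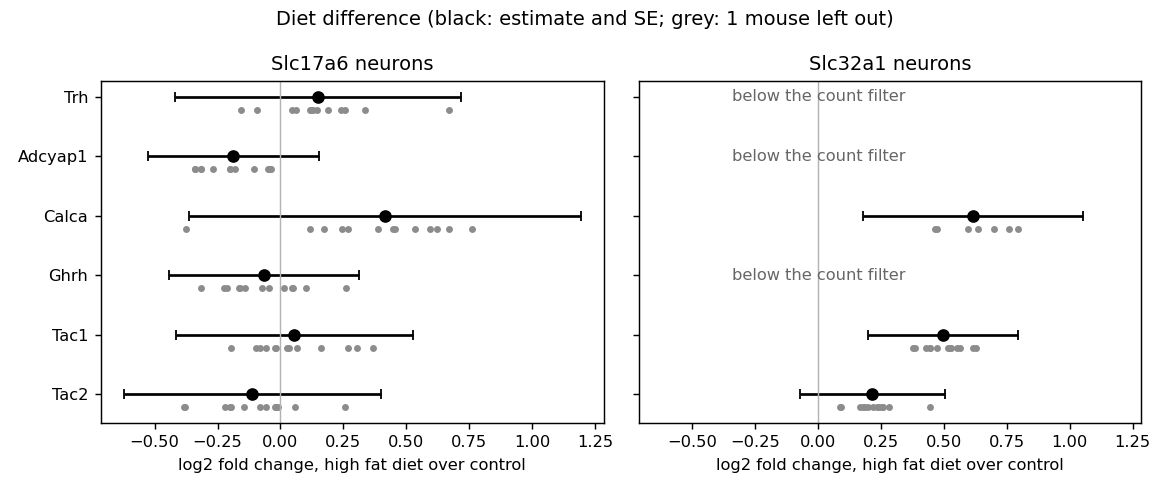
Black points give the edgeR log2 fold change of high fat diet over control with its SE for each gene in Slc17a6 (left) and Slc32a1 neurons (right), and grey points the same with 1 mouse left out. All estimates lie between -0.19 and 0.62, and leaving out 1 mouse turned the sign of Trh, Calca, Ghrh, Tac1 and Tac2 in Slc17a6 neurons.

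Trh was the only member that passed under any setting of the diet test, and only with the filter on low counts removed. In that fit its log2 fold change in Slc32a1 neurons was 2.12 (SE 0.46, edgeR adjusted p = 0.012). It rested on 15 UMIs in 9 of 1184 control neurons and 59 UMIs in 21 of 1589 high fat diet neurons. In high fat diet replicate 5, 25 UMIs were found and 88.0% of them lay in 1 barcode, and in high fat diet replicate 4, 12 UMIs were found and 75.0% lay in 1 barcode. The share of Slc32a1 neurons with a Trh UMI was 0.593 ± 0.568% in control (SD, n = 7) and 1.498 ± 0.889% on high fat diet (SD, n = 6), with overlapping values. When 2 transporter UMIs were required, the difference between the classes in the diet effect on Trh went from -1.82 to -0.29.

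Whether the diet effect differed between the classes was tested as an interaction over the same 13 mice. None of the 6 members passed, where 0.0194% of 10330 genes did and 3.77% had an unadjusted p under 0.05. The genes that passed were Chodl (-1.26, SE 0.26) and Ecel1 (-1.22, SE 0.22), named after their values were seen. The differences, Slc17a6 minus Slc32a1 neurons, ran on the log2 scale from -1.82 (SE 1.21) for Trh to 0.61 (SE 0.61) for Adcyap1. The standard errors were larger than the values for Calca (0.019, SE 1.69), Ghrh (-0.085, SE 0.61), Tac1 (-0.34, SE 0.52) and Tac2 (-0.52, SE 0.68).

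The receptors of these peptides and the enzymes that degrade them were mostly sparse in neurons and, for some, higher in glia and vessels. The list held 18 genes, chosen with the members already known, of which Ghrhr is in none of the tables. In the comparison of the neuron classes 12 passed the filter and 4 passed the test, 1 higher and 3 lower in Slc17a6 neurons, where 10.9% of all genes tested passed, 5.61% higher and 5.25% lower. Trhr, the receptor of thyrotropin-releasing hormone, was higher in Slc17a6 neurons (log2 fold change 0.58, SE 0.18, edgeR adjusted p = 0.035), with 42.9 ± 20.9 and 27.7 ± 10.1 CPM (SD, n = 13). Lower there were Adcyap1r1, the PACAP receptor (-0.32, SE 0.069), Mme, which encodes the peptidase neprilysin (-0.53, SE 0.17), and Ramp3, a partner of the calcitonin receptor family (-1.35, SE 0.30). The neurokinin B receptor Tacr3 did not pass, at -0.022 (SE 0.27). The diet passed the test for none of this list in neurons (12 genes tested), Slc17a6 neurons (10) or Slc32a1 neurons (9), by edgeR and with no unadjusted p under 0.05. For the difference of the diet effect between the classes 0 of 12 passed, and Tacr3 alone had an unadjusted p under 0.05 (log2 difference -1.17, SE 0.42, unadjusted p = 0.0075, edgeR adjusted p = 1.0).

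Adcyap1r1 stood at 554 ± 176 CPM in astrocyte-like barcodes (SD, n = 12) and 302 ± 93.9 in OPC-like barcodes (SD, n = 11), against 83.4 ± 20.5 in Slc17a6 and 110 ± 28.9 in Slc32a1 neurons (SD, n = 13). The lowest astrocyte value, 266, lay above the highest value of either neuron class, 162. Ramp1 and Calcrl, which encode parts of the CGRP receptor, had their highest mean in OPC-like barcodes. Ramp1 was at 808 ± 212 in astrocyte-like barcodes (SD, n = 12) and 1026 ± 175 in OPC-like barcodes (SD, n = 11). Calcrl was at 126 ± 89.7 in OPC-like (SD, n = 11) and 82.0 ± 52.1 in endothelial-like barcodes (SD, n = 12) and held no UMI in astrocyte-like ones. Crcp, also on the receptor list, went the other way. It was at 88.6 ± 20.1 in Slc17a6 and 89.6 ± 16.1 in Slc32a1 neurons (SD, n = 13) and 45.4 ± 48.1 in OPC-like barcodes (SD, n = 11). Ramp2, which with Calcrl forms an adrenomedullin receptor, was at 1242 ± 319 in endothelial-like barcodes (SD, n = 12). Tacr1 and Tacr3, the receptors of substance P and neurokinin B, had means of 17.9 CPM or less in both neuron classes (SD up to 16.6, n = 13) and were at or near 0 elsewhere. These classes were named from marker shares and were not tested against each other.

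**Figure D5:**
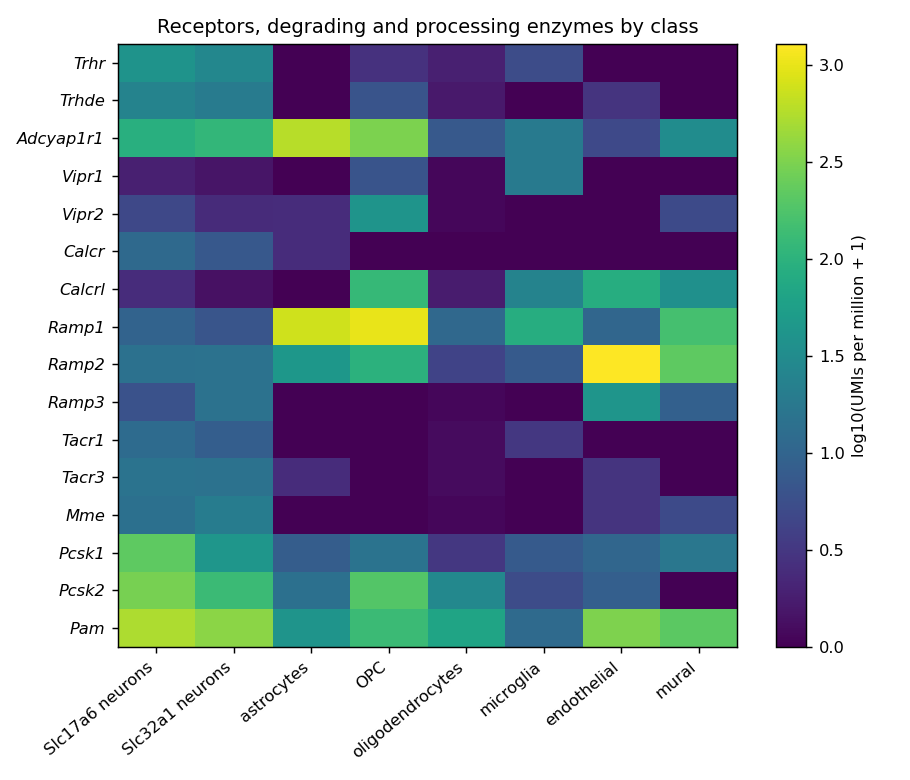
Colours give log10(CPM + 1) of receptors, degrading enzymes and processing enzymes in the pooled barcodes of each class, over all mice. Adcyap1r1 is brightest in astrocyte-like barcodes, Ramp1 in OPC-like and Ramp2 in endothelial-like ones, and Pcsk1 in Slc17a6 neurons.

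Among the genes that process these prohormones, 3 of the 6 tested passed and all 3 were higher in Slc17a6 neurons, where 5.61% of all genes tested were higher: Pcsk1, which encodes prohormone convertase 1/3 (log2 fold change 2.31, SE 0.17, edgeR adjusted p = 4.1e-07), Pcsk2, which encodes prohormone convertase 2 (1.18, SE 0.062), and Pam, which encodes the enzyme that amidates peptides such as thyrotropin-releasing hormone and substance P (0.58, SE 0.042). Pcsk1 stood at 261 ± 162 CPM in Slc17a6 and 45.6 ± 18.1 in Slc32a1 neurons (SD, n = 13). Hypocretin neurons are part of the Slc17a6 class, where Hcrt stood at 12907 CPM in the pooled counts against 131 CPM in Slc32a1 neurons, and their part in these differences was not tested. Under the diet none of the 6 passed in any of the neuron classes.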

How the data were processed

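Cells of lateral hypothalamic punches from 14 mice were measured by Drop-seq. The authors deposited raw UMI counts, 1 table of genes by barcodes per mouse, in whole numbers. The submitters' processing notes name STAR 2.4.2a, Picard 2.2.4, bcl2fastq 2.18.0.12 and build mm10 (GRCm38). What counted UMIs, against which annotation, is not given in the sources used here.

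Barcodes were filtered by the limits given in the text and not clustered, since clusters would use the genes described. Classes were set by marker shares, whose thresholds were chosen after the values were seen. Doublets were not removed with a caller, and an alternative left out the 224 neurons that carry markers of another class (at least 1% of UMIs for oligodendrocytes, 0.5% for the others). Counts were summed per mouse and class where a mouse had at least 10 neurons, and tested with edgeR 4.0.16 in R 4.3.3 (quasi-likelihood, robust, TMM, filterByExpr), with Benjamini-Hochberg adjustment over all genes and a threshold of 0.05. Diet fits had the pool as a covariate, and the split and interaction had the mouse as a block. DESeq2 1.42.0 was an alternative. CPM take all UMIs of the class in a mouse as the total, so depth sets the precision of each value, and limits from a count of 0 use 3 counts and cover counting error only. Of the fits, only the diet fit in neurons was run on simulated counts, with the same dispersion for every gene and no pool effect. That run does not show the power or error for sparse genes such as these. Thinned shares are expected values over random draws without replacement, computed in Python 3.11.15 with scipy 1.17.1.

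Named genes follow a rule: all 6 members, genes of 3 lists (receptors and degrading enzymes, processing enzymes, other peptides) and the 5 genes most like each member. Members, lists and the left-out mice were chosen with earlier results of these data known. The replicate numbers follow the order of the mice within a diet.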

Additional observations from a re-analysis of the deposited data

Results flagged for a closer look

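In 5 of 24 groups of 7 or 6 mice (6 genes, both neuron classes, both diets) 1 mouse lay far above the others by Dixon's criterion at 95%. For normally distributed values chance meets it in about 1 of 20 groups, and the rate for values from few UMIs, such as these, was not tested. In Slc17a6 neurons Trh stood at 469 CPM in control replicate 3, next to 195 in the nearest mouse, from 410 UMIs in 29 positive neurons. Calca in Slc17a6 neurons stood at 114 in control replicate 6, from 13 UMIs in 1 neuron, and at 94.4 in high fat diet replicate 2, from 169 UMIs in 19 neurons. Trh in Slc32a1 neurons stood at 6.32 in control replicate 5, from 10 UMIs in 4 neurons. Tac2 in Slc32a1 neurons stood at 1521 in control replicate 7, from 243 UMIs in 4 neurons.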

How the results depend on the processing

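Trh, Adcyap1, Ghrh and Tac2 kept direction and call in the split under every alternative run, and Tac1 never passed. Calca lost its call without high fat diet replicate 2 and without the 3 mice that stood apart (1.76). Leaving out 1 mouse moved the split of Calca from 1.35 to 2.23, of Trh from 4.80 to 5.71 and of Tac2 from -5.73 to -5.32. With no filter on low counts the diet called 20 genes in neurons, 3 in Slc17a6 and 8 in Slc32a1 neurons, and the interaction 7. The call in Slc32a1 neurons, Rpph1, fell to 0 without the 3 mice and within each pool, and without 1 mouse the count ran from 0 to 1. For the interaction it was 1 without the 3 mice, 1 within pool 1, 1 with at least 2 transporter UMIs, and 0 to 4 without 1 mouse, against 2. The cause was not tested.

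Diet estimates of members, none called, changed sign within pool 1 for Trh in neurons (-0.11) and Slc17a6 neurons (-0.33), Ghrh in neurons (-0.10) and Slc17a6 neurons (0.029) and Tac1 in Slc17a6 neurons (-0.058), and with DESeq2 for Calca in Slc17a6 neurons (-0.11). Interaction values did so within pool 1 for Adcyap1 (-0.51), Calca (-0.69) and Ghrh (0.070), with second-class barcodes left out for Calca (-0.0037) and Ghrh (0.060), and with 2 transporter UMIs for Ghrh (0.22). Without 1 mouse, diet values ran from -0.16 to 0.40 for Ghrh in neurons, and in Slc17a6 neurons from -0.16 to 0.67 for Trh, -0.37 to 0.76 for Calca, -0.32 to 0.26 for Ghrh, -0.20 to 0.37 for Tac1 and -0.38 to 0.25 for Tac2. Interaction values ran from -0.97 to 0.77 for Calca and -0.31 to 0.19 for Ghrh. The interaction without the pool was not run, since the mouse block holds the pool, and some settings left a member below the filter. No paired analysis was possible because the labels give no replicate numbers that pair mice.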
